A study of Mus musculus with 12 samples.

Results

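The genes of the pyruvate dehydrogenase kinases and the tricarboxylic acid (TCA) cycle were examined in C2C12GFP cells on plates with different coatings. The 9 genes were *Pdha1*, *Pdk2*, *Pdk3*, *Pdk4*, *Cs*, *Idh3a*, *Ogdh*, *Fh1*, and *Mdh2*, taken by name from the 55536 genes of the count table. C2C12GFP is an immortalized mouse myoblast line that expresses green fluorescent protein, so every sample comes from 1 line. All cells were switched to a low-serum medium to form myotubes, either on uncoated plates (control) or on Collagen I, fibronectin, or Geltrex™, a basement membrane matrix of mainly laminin, Collagen IV, and entactin. Each of the 4 groups had 3 samples, and the day on which their RNA was taken is not given in the sources used here. Whether the 3 samples came from separate cultures is not stated either, so the p-values measure only the spread between these samples, which may be technical.

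The pyruvate dehydrogenase complex turns pyruvate from glycolysis into acetyl-CoA, the fuel of the TCA cycle, and so stands as a gate between sugar breakdown and mitochondrial respiration. Its kinases close the gate by phosphorylating the E1α subunit, which *Pdha1* encodes, and its phosphatases open it again. In skeletal muscle the kinase PDK4 is known to rise in fasting, when fatty acids replace glucose as fuel, while PDK2 is widely expressed.

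By the GENCODE annotation of GRCm38, the 4 genes of the gate were *Pdha1* (chromosome X, 160122209 to 160138413), *Pdk2* (chromosome 11, 95026258 to 95041354), *Pdk3* (chromosome X, 93764607 to 93832201), and *Pdk4* (chromosome 6, 5483351 to 5496309), all on the minus strand. The cycle enzymes were *Cs* (chromosome 10, 128337734 to 128362479), *Idh3a* (chromosome 9, 54586334 to 54604661), *Ogdh* (chromosome 11, 6291633 to 6356642), *Fh1* (chromosome 1, 175600374 to 175625635), and *Mdh2* (chromosome 5, 135778480 to 135790398). Reads over their exons were counted, and all 9 genes are protein coding.

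The promoters of the 3 kinase genes are shown because these genes differed most between the coatings and went in different directions. Each window of 300 bases spans the start of a RefSeq transcript (GRCm38.p6), with most of it before the start, is written 5′ to 3′ on the transcribed minus strand, and has CG dinucleotides in capitals. They lie at chr11:95041322-95041621 for *Pdk2*, chrX:93832101-93832400 for *Pdk3*, and chr6:5496229-5496528 for *Pdk4*.
Pdk2: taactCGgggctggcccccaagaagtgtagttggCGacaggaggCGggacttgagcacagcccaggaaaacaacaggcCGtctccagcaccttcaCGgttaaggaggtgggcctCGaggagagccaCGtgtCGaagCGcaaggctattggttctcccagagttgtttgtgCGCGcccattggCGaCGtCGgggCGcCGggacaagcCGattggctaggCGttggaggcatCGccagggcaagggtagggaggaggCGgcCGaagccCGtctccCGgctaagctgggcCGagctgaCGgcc
Pdk3: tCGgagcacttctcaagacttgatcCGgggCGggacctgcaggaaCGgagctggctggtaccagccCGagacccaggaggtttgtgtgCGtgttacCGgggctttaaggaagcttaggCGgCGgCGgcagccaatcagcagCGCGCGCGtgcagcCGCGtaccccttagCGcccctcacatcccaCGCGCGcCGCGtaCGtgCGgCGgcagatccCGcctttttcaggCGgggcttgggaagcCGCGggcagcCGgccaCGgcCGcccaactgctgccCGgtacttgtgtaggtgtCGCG
Pdk4: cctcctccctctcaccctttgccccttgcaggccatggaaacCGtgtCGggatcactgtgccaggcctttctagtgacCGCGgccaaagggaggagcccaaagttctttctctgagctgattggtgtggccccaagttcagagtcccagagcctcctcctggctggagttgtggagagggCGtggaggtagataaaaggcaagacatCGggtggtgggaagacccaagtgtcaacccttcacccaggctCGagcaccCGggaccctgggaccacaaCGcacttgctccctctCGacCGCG
The windows differed in CG content, with 25 CG in *Pdk2*, 35 in *Pdk3*, and 12 in *Pdk4*, against a median of 7 over all promoter windows of RefSeq. The other members with a window had 21 (*Pdha1*), 18 (*Cs*), 26 (*Ogdh*), 14 (*Fh1*), and 27 (*Mdh2*). Motifs were searched on both strands in the 14 windows of these 8 genes and in all 32851 windows. The binding core of estrogen-related receptors, AAGGTCA, stood in 1 of the 14 windows, which belongs to *Ogdh*, and in 4.72% of all. The forkhead motif GTAAACA (3.65% of all windows), the E-box CAGCTG (16.3%), and the ETS motif CCGGAAG (8.86%) stood in none of the 14.

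The total count per sample lay between 22520404 and 27351766. Low-count genes were left out, which kept 14499 genes and all 9 members, whose lowest count in any sample was 496. Levels are given in CPM, counts scaled by TMM to a common library size. Differences are log2 fold changes from edgeR's quasi-likelihood test with their standard error (SE) and a Benjamini-Hochberg adjusted p, taken over the 14499 genes, with a threshold of 0.05. The 3 Geltrex™ samples varied less among themselves than those of other groups, with a biological coefficient of variation of 3.74% against 11.2% in the control, 12.01% on Collagen I, and 11.4% on fibronectin. They still differed beyond counting noise and were kept as 3 samples. Separate libraries of the same culture could differ in this way too, so this does not show separate cultures. Collagen I sample 3 and control sample 2 stood apart, at opposite ends of the third principal component, which held 7.53% of the variance.

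Of the 9 genes, 7 passed the test in 1 or more of the 6 comparisons, and none reached a fold change of 2 in any. The share of all genes tested that passed in 1 or more of the 6 was not computed. It is at least 45%, the share for Collagen I over fibronectin alone, so 7 of 9 is not read as particular to these genes. The kinase genes *Pdk2*, *Pdk3*, and *Pdk4* moved most, by up to 1.85-fold. *Cs* and *Idh3a* passed in none, with DESeq2 or at an unadjusted p under 0.05 either. The share of all genes tested that passed with a fold change of at least 2 was 9.14% on Geltrex™, 6.66% on fibronectin, and 0.131% on Collagen I over the control, and 8.46%, 9.32%, and 3.98% for Collagen I over fibronectin, Collagen I over Geltrex™, and fibronectin over Geltrex™. Relative to the control, 1 gene differed on Collagen I (*Pdk4*, lower), where 1.12% of all genes tested passed, 0.2% higher and 0.917% lower. On fibronectin 5 differed, with *Pdk3* higher and *Pdk2*, *Pdha1*, *Ogdh*, and *Mdh2* lower, where 31.9% of all genes passed, 17.1% higher and 14.7% lower. On Geltrex™ 3 differed, with *Pdk3* higher and *Pdk2* and *Pdk4* lower, where 33% passed, 16.4% higher and 16.6% lower. Leaving out control sample 2, fibronectin sample 2, Geltrex™ sample 1, or Geltrex™ sample 2 left 3 of the 5 on fibronectin, leaving out fibronectin sample 1 left 2, and summing the Geltrex™ samples into 1 left 1 of the 3 on Geltrex™. Over the 9 genes the median log2 fold change came to 0.0069 with Collagen I, -0.12 on fibronectin, and -0.086 on Geltrex™, beside -0.0031, -0.016, and -0.012 over all genes tested. The 3 comparisons share the control samples.

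**Figure D1:**
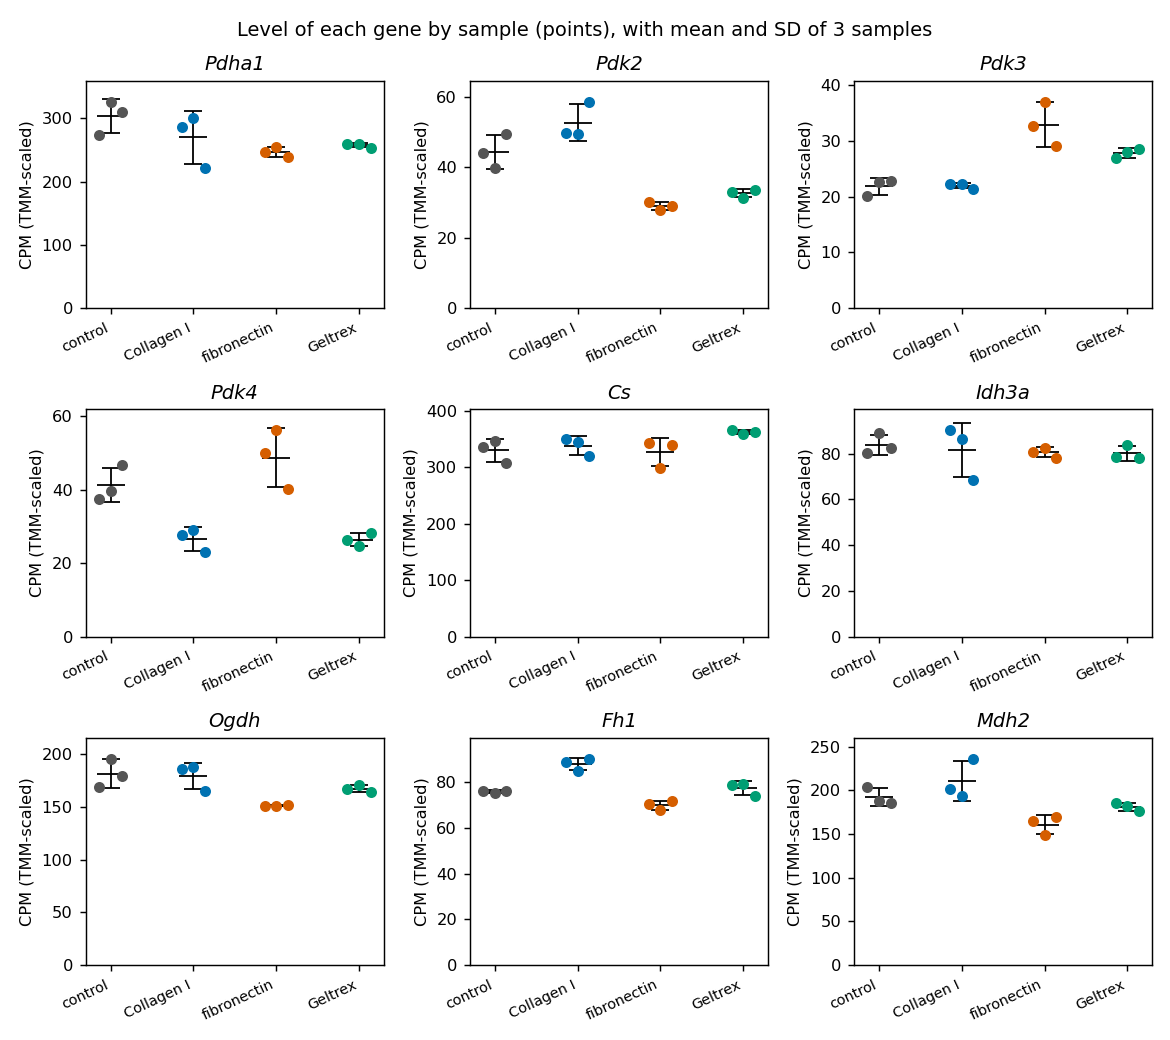
Level of each of the 9 genes in CPM (vertical axis, from 0) in the 12 samples, grouped by coating, with the mean and SD of 3 samples as bars. *Pdk2* sits lower on fibronectin and Geltrex™, *Pdk3* higher on both, and *Pdk4* lower on Collagen I and Geltrex™, while *Idh3a* overlaps across the groups.

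*Pdk2* encodes a broadly expressed kinase of the complex. Its level was 44.0, 39.9, and 49.4 CPM in the 3 control samples and 49.9, 49.5, and 58.7 CPM on Collagen I. On fibronectin it was 30.2, 27.8, and 29.0 CPM, and on Geltrex™ 33.1, 31.4, and 33.7 CPM. Every sample on fibronectin and Geltrex™ was below every control and Collagen I sample. Relative to the control, *Pdk2* fell by 0.61 (SE 0.094, adjusted p = 0.000144) on fibronectin and fell by 0.44 (SE 0.094, adjusted p = 0.00182) on Geltrex™ on the log2 scale. Collagen I exceeded fibronectin by 0.86 (SE 0.094, adjusted p = 3.77e-06) and Geltrex™ by 0.69 (SE 0.094, adjusted p = 3.64e-05). In the order of levels, from Collagen I through the control and Geltrex™ to fibronectin, the outer neighbors did not pass the test. Collagen I over the control was 0.25 (95% interval 0.050 to 0.44, adjusted p = 0.223), and fibronectin over Geltrex™ was -0.17 (-0.38 to 0.028, adjusted p = 0.216). With the Geltrex™ samples summed into 1, the difference between Geltrex™ and the control no longer passed (adjusted p = 0.0738).

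*Pdk3* encodes a kinase of more restricted expression. Its level was 20.2, 22.6, and 22.9 CPM in the control and 22.2, 22.3, and 21.4 CPM on Collagen I. It was 32.6, 37.0, and 29.0 CPM on fibronectin and 26.9, 27.9, and 28.6 CPM on Geltrex™. The coatings low in *Pdk2* were thus high in *Pdk3*, and the samples on fibronectin and Geltrex™ were all above those of the control and Collagen I. *Pdk3* rose by 0.59 (SE 0.095, adjusted p = 0.000234) on fibronectin and by 0.35 (SE 0.095, adjusted p = 0.0106) on Geltrex™ over the control. Collagen I relative to fibronectin was -0.58 (SE 0.095, adjusted p = 0.000186) and relative to Geltrex™ -0.34 (SE 0.095, adjusted p = 0.0111). Collagen I and the control differed by 0.0069 (-0.20 to 0.21, adjusted p = 0.985), and fibronectin over Geltrex™ was 0.24 (0.042 to 0.44, adjusted p = 0.0845). The rise on Geltrex™ over the control did not pass without control sample 1 (0.29, adjusted p = 0.0516), and neither it nor the difference from Collagen I passed with the Geltrex™ samples summed into 1 (adjusted p = 0.138 and 0.133). Without fibronectin sample 3, fibronectin over Geltrex™ passed (0.32, adjusted p = 0.0244).

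*Pdk4*, the kinase gene known for its response to fasting, divided the groups differently. Its level was 37.6, 39.7, and 46.7 CPM in the control and 49.95, 56.3, and 40.2 CPM on fibronectin. It was 27.6, 29.1, and 22.9 CPM on Collagen I and 26.3, 24.7, and 28.4 CPM on Geltrex™. Every Collagen I and Geltrex™ sample was below every control and fibronectin sample, while control and fibronectin samples overlapped. *Pdk4* was 1.55-fold lower on Collagen I (log2 fold change -0.64, SE 0.13, adjusted p = 0.0226) and 1.56-fold lower on Geltrex™ (-0.64, SE 0.13, adjusted p = 0.000941) than in the control. Fibronectin exceeded Geltrex™ by 0.88 (SE 0.13, adjusted p = 0.000129), and Collagen I was below fibronectin by the same size (-0.88, SE 0.13, adjusted p = 5.64e-05). Collagen I over Geltrex™ was 0.0076 (-0.26 to 0.28, adjusted p = 0.970). Fibronectin over the control was 0.24 (-0.021 to 0.50, adjusted p = 0.150), but passed without fibronectin sample 3 (0.37, adjusted p = 0.0250). The fall on Collagen I did not pass without control sample 2 (adjusted p = 0.0637) or 3 (0.0942), or without Collagen I sample 1 (0.0628), 2 (0.0529), or 3 (0.0607), with log2 fold changes of -0.71 to -0.54. It also did not pass with the samples of the 2 groups alone (adjusted p = 0.0646) or with the Geltrex™ samples summed into 1 (0.0736).

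The 4 kinase genes were compared with each other as CPM per kb of exon, with *Pdk1* included, a kinase gene known as a target of HIF-1. In the control, *Pdk2* held the largest share of their sum, 30.6% ± 2.30 (SD, n = 3), followed by *Pdk4* at 25.6% ± 1.41, *Pdk1* at 25.2% ± 2.47, and *Pdk3* at 18.6% ± 0.797. On Collagen I, *Pdk2* held 37.2% ± 4.43 and *Pdk4* 16.8% ± 1.73. On fibronectin the shares lay close together apart from a lower *Pdk2*, with 28.2% ± 2.23 for *Pdk4*, 26.9% ± 1.30 for *Pdk1*, 26.1% ± 1.18 for *Pdk3*, and 18.8% ± 2.03 for *Pdk2*. On Geltrex™, *Pdk1* led with 38.5% ± 1.30, followed by *Pdk3* at 23.2% ± 0.745, *Pdk2* at 22.1% ± 0.406, and *Pdk4* at 16.1% ± 0.843. By these means *Pdk2* led in the control and on Collagen I and *Pdk1* on Geltrex™, while on fibronectin *Pdk4* and *Pdk1* were close. Without fibronectin sample 2, *Pdk1* had 27.7% there and *Pdk4* 27.1%.

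The ratio of *Pdk4* to *Pdk2* per kb was 0.839 ± 0.0643 in the control, 0.460 ± 0.0949 on Collagen I, 1.52 ± 0.287 on fibronectin, and 0.728 ± 0.0269 on Geltrex™. The summed level of the 4 kinases varied little beside this, at 45.9 ± 2.71, 44.9 ± 0.888, 49.1 ± 4.48, and 46.7 ± 0.848 CPM per kb in the same order. These shares are a description without a test, and with the length of the longest transcript in place of the exon length *Pdk4* came to 19.97%, 12.8%, 22.4%, and 12.2%, and *Pdk1* held the largest share on fibronectin (31.9%).

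**Figure D2:**
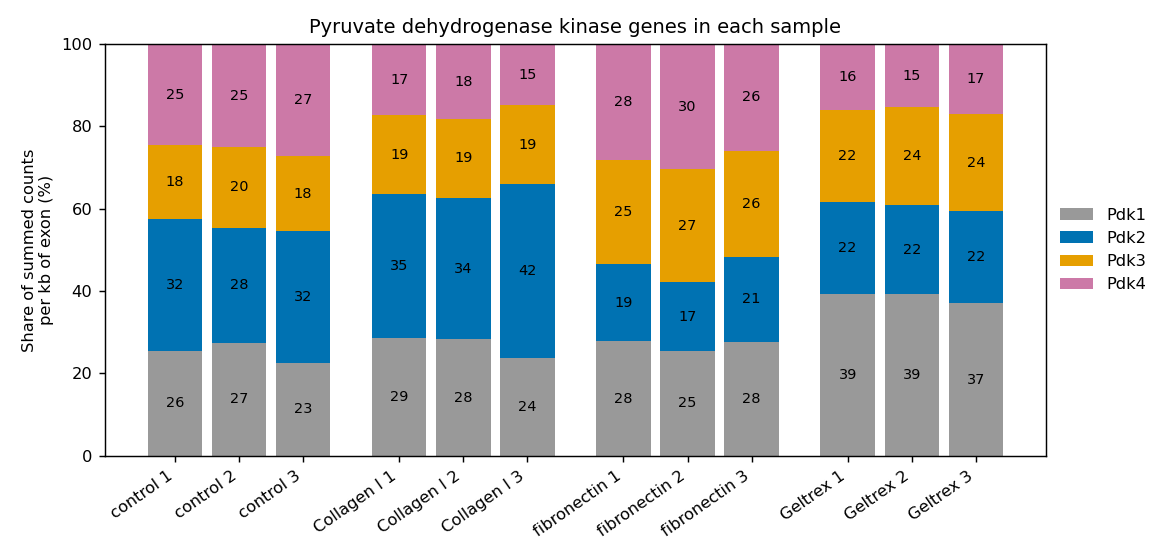
Share of each kinase gene in the summed CPM per kb of the 4 genes (vertical axis, percent) in each of the 12 samples, with shares written in the bars. *Pdk2* is the largest share in all 3 Collagen I samples and the smallest in all 3 fibronectin samples, and *Pdk1* is the largest in all 3 Geltrex™ samples.

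*Pdk1* itself was at 89.5 ± 5.87 CPM in the control and 140.1 ± 3.39 CPM on Geltrex™, a rise of 0.65 (SE 0.091, adjusted p = 5.13e-05). Collagen I was below Geltrex™ (log2 fold change -0.57, SE 0.091, adjusted p = 0.000157). *Pdk1* was the kinase gene with the largest rise on Geltrex™ over the control, where all 4 passed the test, 2 higher and 2 lower. Of all genes tested, 33% passed there, 16.4% higher and 16.6% lower.

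*Pdha1*, the target of these kinases, was the most abundant of the 9 genes per kb, at 72.2 CPM per kb over all samples. Its level was 273, 326, and 310.2 CPM in the control and 287, 301, and 222 CPM on Collagen I. It was 247, 255, and 239 CPM on fibronectin and 259, 260, and 253 CPM on Geltrex™. All fibronectin and Geltrex™ samples were below the lowest control sample, and Collagen I sample 3 was below them all. Fibronectin was lower than the control by 0.30 (log2 fold change -0.30, SE 0.10, adjusted p = 0.0355). Geltrex™ over the control was -0.24 (-0.45 to -0.021, adjusted p = 0.0866) and Collagen I over the control -0.17 (-0.38 to 0.047, adjusted p = 0.448), and no comparison between coatings passed. The fall on fibronectin failed the threshold without control sample 2 or 3, any 1 fibronectin sample, or any 1 Geltrex™ sample, with adjusted p-values from 0.0538 to 0.135. *Pdha1* passed as lower on Geltrex™ than in the control without Collagen I sample 3 (-0.24, adjusted p = 0.0165) or control sample 1 (-0.31, 0.0449). The same difference passed with upper-quartile scaling (-0.26, adjusted p = 0.0373) and with only the samples compared (-0.24, 0.0216). Without Collagen I sample 3, Collagen I also exceeded fibronectin in *Pdha1* (0.26, adjusted p = 0.0226). *Pdha1* shares 16.1% of its exon length with *Map3k15* on the other strand, which had a mean of 1.19 CPM, and *Pdha2*, its testis copy, had 0 counts.

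The other subunits of the complex gave 2 further falls on fibronectin, *Pdhb*, the E1β subunit (-0.30, SE 0.069, adjusted p = 0.00356), and *Pdhx*, the E3-binding protein (-0.31, SE 0.099, adjusted p = 0.0267). Both were also lower on Geltrex™ than in the control, by log2 fold changes of -0.27 (adjusted p = 0.00707) and -0.37 (adjusted p = 0.00959). Of the 5 genes of the complex, 3 fell on fibronectin, where 14.7% of all genes tested fell, and 2 on Geltrex™, where 16.6% fell, and on Collagen I none passed, by DESeq2 or at an unadjusted p under 0.05 either.

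The cycle enzymes moved less than the kinases. *Mdh2*, mitochondrial malate dehydrogenase, which regenerates oxaloacetate, was at 204, 187, and 186 CPM in the control and 202, 194, and 236 CPM on Collagen I. It was at 165, 149, and 169 CPM on fibronectin and 186, 182, and 177 CPM on Geltrex™. The 3 fibronectin samples were below the 9 others. *Mdh2* was lower on fibronectin than in the control (log2 fold change -0.26, SE 0.086, adjusted p = 0.0302) and Collagen I exceeded fibronectin (0.39, SE 0.086, adjusted p = 0.00192). Collagen I over Geltrex™ was 0.22 (0.034 to 0.40, adjusted p = 0.0592). The fall from the control was lost without control sample 1 (-0.21, adjusted p = 0.120), fibronectin sample 1 (-0.27, 0.0665) or 2 (-0.20, 0.126), or Geltrex™ sample 1 (0.0505) or 2 (0.0512). Collagen I over Geltrex™ passed without Collagen I sample 2 (0.27, adjusted p = 0.0358) and with DESeq2 (0.21, 0.0492).

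*Fh1*, fumarase, which makes malate from fumarate, was highest on Collagen I. It was at 88.8, 84.98, and 90.4 CPM there, 76.1, 75.3, and 76.4 CPM in the control, 70.4, 67.9, and 71.6 CPM on fibronectin, and 79.1, 79.3, and 74.0 CPM on Geltrex™. Every Collagen I sample was above the 9 others, and every fibronectin sample was below all samples of the other groups. Still, fibronectin did not pass over the control (-0.12, -0.26 to 0.026, adjusted p = 0.199) or over Geltrex™ (-0.15, -0.29 to -0.0028, adjusted p = 0.144). Collagen I exceeded fibronectin by 0.33 (SE 0.068, adjusted p = 0.00110) and Geltrex™ by 0.19 (SE 0.067, adjusted p = 0.0416). Collagen I over the control was 0.21 (0.070 to 0.36) and did not pass with edgeR (adjusted p = 0.139), although it did with DESeq2 (adjusted p = 0.0369). The difference from Geltrex™ was lost when any 1 of 10 samples was left out, all but control sample 1 and fibronectin sample 2, with adjusted p-values from 0.0512 to 0.175. It was also lost with RLE scaling (adjusted p = 0.0503), with no filter on low counts (0.252), and with the Geltrex™ samples summed into 1 (0.356).

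*Ogdh*, the E1 subunit of the 2-oxoglutarate dehydrogenase complex, was at 169, 196, and 179.6 CPM in the control and 186, 187, and 165 CPM on Collagen I. It was at 150.5, 150.8, and 152 CPM on fibronectin and 167, 170.4, and 164 CPM on Geltrex™. The 3 fibronectin samples lay close together and below all others. *Ogdh* was lower on fibronectin than in the control (log2 fold change -0.26, SE 0.076, adjusted p = 0.0158) and Collagen I exceeded fibronectin (0.25, SE 0.076, adjusted p = 0.0150). Geltrex™ lay between, at -0.12 relative to the control (-0.28 to 0.044, adjusted p = 0.262). The fall from the control was lost without control sample 2 (-0.20, adjusted p = 0.0850) or fibronectin sample 1 (-0.25, 0.0612), and the difference from Collagen I without Collagen I sample 1 (0.0643) or 2 (0.0613) or fibronectin sample 1 (0.0536). Both were lost with no filter on low counts (adjusted p = 0.0539 and 0.0555).

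*Cs*, citrate synthase, which starts the cycle, was at 336, 347, and 307 CPM in the control, 350.2, 345, and 319 CPM on Collagen I, 343, 298, and 339.8 CPM on fibronectin, and 366, 359, and 362 CPM on Geltrex™. The Geltrex™ samples were above all others, but no comparison passed, and Geltrex™ over the control was 0.13 (-0.033 to 0.30, adjusted p = 0.212). *Idh3a*, the catalytic subunit of NAD-dependent isocitrate dehydrogenase, lay between 80.2 and 88.9 CPM in the control, 68.3 and 90.3 CPM on Collagen I, 78.2 and 82.6 CPM on fibronectin, and 78.1 and 84.0 CPM on Geltrex™. Its groups overlapped, and its log2 fold changes over the control were -0.038 (-0.24 to 0.16) on Collagen I, -0.058 (-0.26 to 0.14) on fibronectin, and -0.065 (-0.26 to 0.13) on Geltrex™.

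**Figure D3:**
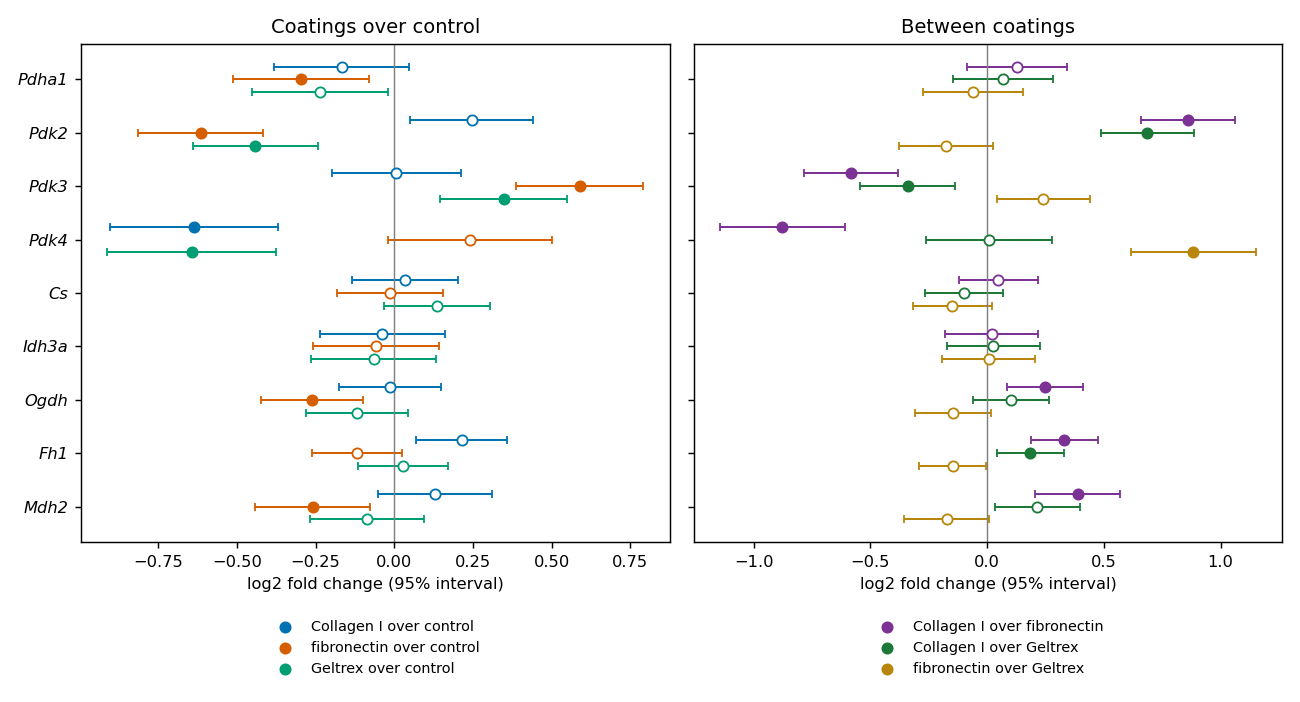
Log2 fold change (horizontal axis) of each of the 9 genes with its 95% interval, for the coatings over the control (left) and between coatings (right), with filled points for an adjusted p of at most 0.05. *Pdk2* and *Pdk3* lie on opposite sides of 0 on fibronectin and on Geltrex™, and *Pdk4* lies near -0.64 on both Collagen I and Geltrex™.

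Between the coatings, Collagen I differed from fibronectin in 6 of the 9 genes, with *Pdk2*, *Fh1*, *Mdh2*, and *Ogdh* higher and *Pdk3* and *Pdk4* lower, where 45% of all genes tested passed, 22.1% higher and 22.9% lower. It differed from Geltrex™ in 3, with *Pdk2* and *Fh1* higher and *Pdk3* lower, where 37.1% passed, 18.2% higher and 19% lower. With the Geltrex™ samples summed into 1, *Pdk2* alone was left of these 3. Fibronectin and Geltrex™ differed in *Pdk4* alone, higher on fibronectin, where 19.3% passed, 10.3% higher and 9.06% lower. *Pdk3* joined it without fibronectin sample 3. These comparisons share samples with each other and with those over the control.

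A list of 32 genes covers the complex, its kinases and phosphatases, the mitochondrial pyruvate carrier, and the TCA cycle, and holds all 9. On Collagen I 1 of the 32 differed from the control. On fibronectin 15 differed, 3 higher and 12 lower, and on Geltrex™ 14, 4 higher and 10 lower. Over all genes tested, 31.9% passed on fibronectin (17.1% higher, 14.7% lower), 33% on Geltrex™ (16.4% higher, 16.6% lower), and 1.12% on Collagen I. The median log2 fold change of the list was -0.20 on fibronectin, -0.11 on Geltrex™, and 0.0043 on Collagen I, beside -0.016, -0.012, and -0.0031 over all genes tested. Of the 18 cycle genes, 8 were lower on fibronectin and none higher, and on Geltrex™ 4 were lower and 1 higher, against the same shares of all genes. The count on Geltrex™, 5 of 18, is near the 33% of all genes. The one that rose on Geltrex™ was *Idh2*, the NADP-dependent isocitrate dehydrogenase (0.29, adjusted p = 0.00638). Collagen I had 9 cycle genes higher and 1 lower than fibronectin, where 45% of all genes tested passed, 22.1% higher and 22.9% lower. The largest was *Sdhc*, a membrane subunit of succinate dehydrogenase (0.52, adjusted p = 0.00184). The lower one was *Suclg2*, a succinate-CoA ligase subunit (-0.23, adjusted p = 0.0269). The 15 genes on fibronectin became 9 without control sample 1, 5 without fibronectin sample 1, and 8 without fibronectin sample 2. With the Geltrex™ samples summed into 1 they became 7, and the 14 on Geltrex™ became 3.

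**Figure D4:**
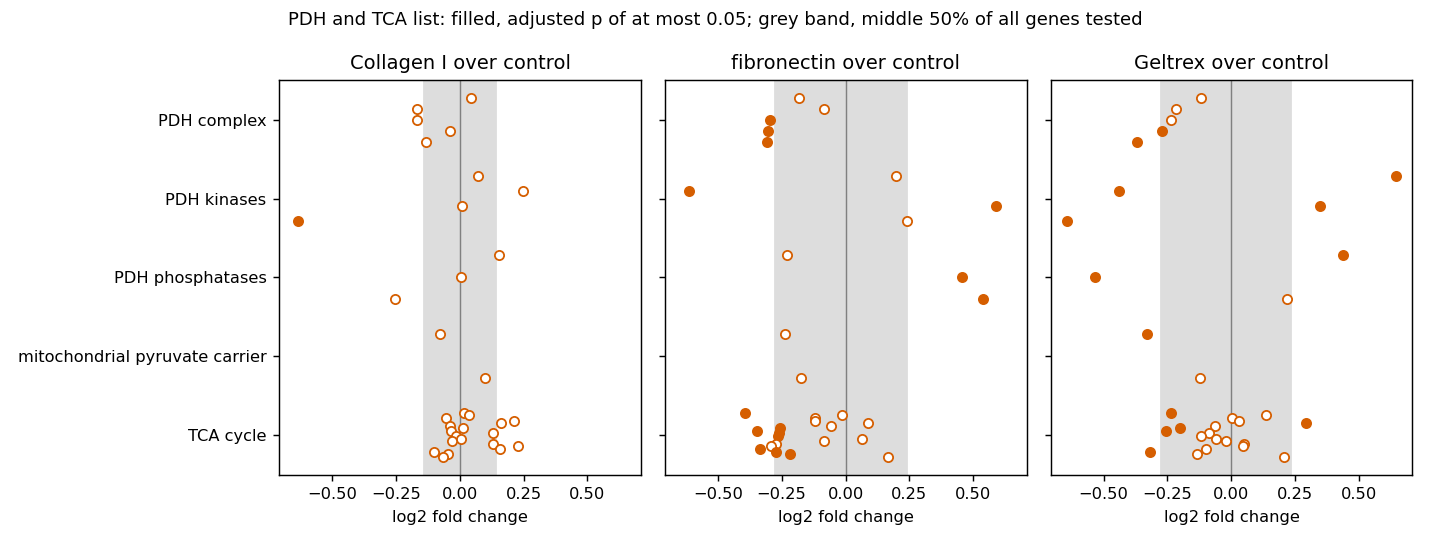
Log2 fold change over the control (horizontal axis) of the 32 genes, 1 point per gene, by their place in the pathway, in 3 panels for Collagen I, fibronectin, and Geltrex™. The cycle genes lie mostly left of 0 on fibronectin, with a median of -0.24, and the kinases spread to both sides on fibronectin and Geltrex™.

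The phosphatases, which reverse the kinases, moved in opposite directions too. *Pdp1*, the calcium-stimulated phosphatase, was at 82.5 ± 1.60 CPM in the control, 91.6 ± 6.60 on Collagen I, 70.4 ± 8.13 on fibronectin, and 112 ± 2.08 on Geltrex™. *Pdp2* was at 14.4 ± 1.35, 14.5 ± 0.710, 19.9 ± 4.35, and 9.98 ± 0.410 CPM. On Geltrex™, *Pdp1* was higher (0.44, adjusted p = 0.000969) and *Pdp2* lower (-0.53, SE 0.14, adjusted p = 0.00903) than in the control. Fibronectin relative to Geltrex™ was -0.67 (SE 0.086, adjusted p = 5.35e-05) for *Pdp1* and 0.99 (SE 0.14, adjusted p = 0.000128) for *Pdp2*. On fibronectin, *Pdp2* (0.46, adjusted p = 0.0182) and *Pdpr*, the regulatory subunit of the phosphatase (0.54, SE 0.16, adjusted p = 0.0206), rose over the control. *Pdpr* was lower on Collagen I than on fibronectin (-0.79, SE 0.17, adjusted p = 0.00133).

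Genes that feed or drain the cycle gave the largest folds around it. *Pck2*, mitochondrial phosphoenolpyruvate carboxykinase, was at 15.5 ± 0.909 CPM in the control, 15.3 ± 1.62 on Collagen I, 36.8 ± 2.69 on fibronectin, and 23.3 ± 1.35 on Geltrex™. It rose 2.38-fold on fibronectin (log2 fold change 1.25, SE 0.098, adjusted p = 1.80e-07) and 1.504-fold on Geltrex™ (0.59, SE 0.099, adjusted p = 0.000269). Collagen I was below fibronectin (-1.26, SE 0.099, adjusted p = 1.07e-07) and Geltrex™ (-0.60, SE 0.10, adjusted p = 0.000217) in *Pck2*, and fibronectin was above Geltrex™ (0.66, SE 0.096, adjusted p = 0.000158). *Pcx*, pyruvate carboxylase, which makes oxaloacetate from pyruvate, fell by 0.73 (SE 0.11, adjusted p = 0.000116) on fibronectin and by 0.46 (SE 0.11, adjusted p = 0.00406) on Geltrex™. *Me2*, the mitochondrial NAD-dependent malic enzyme, rose by 0.57 (SE 0.10, adjusted p = 0.000592) on fibronectin. *Acly*, ATP-citrate lyase, which draws citrate out for lipid synthesis, was lower on Collagen I than on fibronectin (-0.65, SE 0.089, adjusted p = 3.53e-05). *Mdh1*, the cytosolic malate dehydrogenase, was higher on Collagen I than on Geltrex™ (0.51, SE 0.077, adjusted p = 0.000107), and *Slc25a10*, the dicarboxylate carrier, was lower on fibronectin than on Geltrex™ (-0.49, SE 0.14, adjusted p = 0.0238). Of the 15 genes of this list, 5 rose and 2 fell on fibronectin, 4 rose and 2 fell on Geltrex™, and on Collagen I none passed, with 5 at an unadjusted p under 0.05 and 0 with DESeq2. Of all genes tested, 17.1% rose and 14.7% fell on fibronectin, and 16.4% rose and 16.6% fell on Geltrex™.

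Among 14 known regulators of these genes, 11 were tested, and relative to the control 3 passed on fibronectin, 4 on Geltrex™, and none on Collagen I (3 at an unadjusted p under 0.05, 1 with DESeq2). These counts are near the 31.9% and 33% of all genes tested that passed on fibronectin and Geltrex™. *Esrra*, the estrogen-related receptor α, which drives many cycle genes, was at 13.01 ± 2.81 CPM in the control and 8.37 ± 2.68 on fibronectin (-0.64, SE 0.20, adjusted p = 0.0268). *Foxo1*, a known activator of *Pdk4*, was at 48.7 ± 2.77 CPM in the control, 40.6 ± 4.06 on Collagen I, 53.2 ± 4.79 on fibronectin, and 37.5 ± 0.790 on Geltrex™. *Foxo1* was lower on Geltrex™ than in the control (-0.38, SE 0.091, adjusted p = 0.00458), did not pass on Collagen I (-0.26, SE 0.090, adjusted p = 0.178), and was higher on fibronectin than on Geltrex™ (0.50, SE 0.091, adjusted p = 0.000970). *Hif1a*, a known activator of *Pdk1*, rose by 0.59 (SE 0.13, adjusted p = 0.00323) on fibronectin and by 0.36 (SE 0.13, adjusted p = 0.0450) on Geltrex™ over the control. The value of *Pdk1* on fibronectin over the control was 0.20 (SE 0.091, adjusted p = 0.110). *Ppargc1a*, a coactivator of mitochondrial genes, was at 2.11 ± 0.205 CPM in the control, 3.94 ± 1.23 on Collagen I, 1.90 ± 0.465 on fibronectin, and 1.52 ± 0.107 on Geltrex™. Collagen I exceeded fibronectin by 1.06 (SE 0.24, adjusted p = 0.00247) and Geltrex™ by 1.38 (SE 0.25, adjusted p = 0.000509) in *Ppargc1a*. Over the control, *Ppargc1a* gave 0.90 (SE 0.24, adjusted p = 0.0752) on Collagen I, -0.15 (SE 0.25, adjusted p = 0.683) on fibronectin, and -0.48 (SE 0.26, adjusted p = 0.184) on Geltrex™. These are RNA levels, and the part of any regulator in the values of its target genes was not tested.

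Over the 12 samples, the genes whose log2 CPM was most like that of *Pdk2* among 10198 genes with a mean of at least 5 CPM were *Fam114a2* (Pearson's r = 0.988), *Bcap31* (0.986), and *Dbi* (0.974). Those most like *Pdk3* were *Gprin3* (0.988), *Fam107b* (0.983), and *Prr14l* (0.982), and those most like *Pdk4* were *Acsl3* (0.978), *Ets2* (0.968), and *Hspa12a* (0.964). Those most like *Pdha1* were *Dip2c* (0.957), *Etfdh* (0.955), and *Fxr1* (0.953). The samples come in 4 groups of 3, so a high r can come from the differences between groups alone, and these values are a description.

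Markers of the myotube moved with the same groups. The summed level of 12 myotube markers was 8636 to 9688 CPM in the control and 8994 to 9627 on Collagen I, but 2361 to 2824 on fibronectin and 3468 to 3823 on Geltrex™. Of these 12, 11 were tested, and all 11 were lower on fibronectin and on Geltrex™ than in the control. Of all genes tested, 14.7% were lower on fibronectin and 16.6% on Geltrex™. The 10 markers of proliferating cells summed to 211 to 273 CPM in the control, 184 to 192 on Collagen I, 708 to 947 on fibronectin, and 729 to 785 on Geltrex™. All 10 were higher on fibronectin and on Geltrex™ than in the control, where 17.1% and 16.4% of all genes tested were higher. On Collagen I none of the 10 passed, with log2 fold changes of -0.54 to -0.13 over the control. Of these, 6 had an unadjusted p under 0.05, and 2 passed with DESeq2. No myotube marker passed on Collagen I, with 2 at an unadjusted p under 0.05 and 1 with DESeq2. *Pdk2* was low and *Pdk3* high in the same samples that were low in myotube markers, and the part of this in their values was not tested, because the marker levels and the coatings cannot be told apart here. In bulk samples, fewer cells of a type and less RNA per cell cannot be told apart.

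Markers of satellite or reserve cells summed to 334 to 372 CPM in the control, 283 to 305 on Collagen I, 400.0 to 462 on fibronectin, and 519.9 to 542 on Geltrex™, with *Calcr* at 0 counts in all samples. *Sdc4* made up most of each sum, with group means of 225, 171, 295, and 381 CPM. Of the 7 markers, 6 were tested. Relative to the control, 2 were higher and 1 lower on fibronectin, 3 higher and 1 lower on Geltrex™, and 1 lower on Collagen I. The lower ones were *Spry1* on fibronectin (adjusted p = 0.00147), *Heyl* on Geltrex™ (adjusted p = 0.000258), and *Sdc4* on Collagen I (adjusted p = 0.0339). The median log2 fold change was -0.058 on fibronectin and 0.18 on Geltrex™. *Pax7* was near the floor, with means of 0.558 CPM in the control and 0.217 on Geltrex™ (-1.35, adjusted p = 0.0533). Of all genes tested, 17.1% were higher and 14.7% lower on fibronectin, and 16.4% higher and 16.6% lower on Geltrex™. On Collagen I, 0.2% were higher and 0.917% lower. The 6 osteoblast markers summed to 33.3 to 41.7, 46.5 to 54.6, 57.4 to 66.6, and 54.1 to 61.5 CPM, with *Ibsp* at 0. *Phex* made up most of each sum, with group means of 33.3, 44.1, 56.6, and 50.5 CPM. Only 3 of the 6 were tested, of which 1 was higher on fibronectin and 2 on Geltrex™, and none lower. On Collagen I none passed, with 1 at an unadjusted p under 0.05 and 1 with DESeq2. *Bglap2* gave log2 fold changes of -0.34 (adjusted p = 0.414) on fibronectin and -0.21 (adjusted p = 0.630) on Geltrex™. The 6 adipocyte markers were at most 0.518 CPM together in any sample, and the 6 immune markers at most 1.49 CPM, with *Adgre1* at 0. The part of satellite or reserve cells and osteoblast markers in the values above was not tested.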

How the data were processed

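Total RNA of C2C12GFP cells was sequenced by the authors as paired-end reads on an Illumina NovaSeq. The reads were trimmed with Trimmomatic, aligned with HISAT2, and counted with featureCounts. The deposited table gives these raw counts per gene for 12 samples, not normalized or filtered. The genome build, annotation release, and rules for strand and multiply mapped reads are not given in the sources used here, and without strand, reads of *Pdha1* and *Map3k15* over their shared exons cannot be told apart. All 55536 gene identifiers were found in GENCODE M21 (GRCm38), from which names, positions, and exon lengths were taken. Promoter windows came from RefSeq (GRCm38.p6), and 8 of the 9 members matched by symbol.

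Samples were grouped by their treatment labels, and the columns of counts were matched to samples by title. The analysis used R 4.3.3 and edgeR 4.0.16, with filterByExpr (minimum count 10, minimum total 15), which left 14499 genes, TMM scaling, and 1 quasi-likelihood model with the 4 groups, 8 residual degrees of freedom, and 6 comparisons. The SE is the size of a log2 fold change divided by the root of F. Totals of 22520404 to 27351766 counts gave every member at least 496 counts, and both counting error and the spread between samples limit the precision. The likeness between genes used log2 CPM with a prior count of 2. The members and gene lists were chosen with earlier results of these data known. Besides the 9 members, genes were named by a rule: in each comparison the 4 largest changes past the threshold among the other genes of the pathway and its supply, 4 regulators, and the 3 genes most like *Pdha1*, *Pdk2*, *Pdk3*, and *Pdk4*. *Pdhb*, *Pdhx*, *Idh2*, *Sdhc*, *Suclg2*, *Sdc4*, *Spry1*, *Heyl*, and the further values of *Pdp1* and *Pdp2* were named after their values were seen. 1 gene of the pathway list is not reported here by name.

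Each test was repeated with DESeq2 1.42.0, RLE and upper-quartile scaling, no filter, at least 10 counts in every sample, only the samples compared, the replicate number as a block, the Geltrex™ samples summed into 1, and each sample left out. The procedure was tested on simulated data.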

Additional observations from a re-analysis of the deposited data

How the results depend on the processing

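The 54 log2 fold changes of the 9 genes (6 comparisons) were recomputed under 20 alternatives, 1080 values in all. Of these, 1018 stayed on their side of the threshold, 50 lost it, and 12 gained it. None changed sign where the main or the alternative fit passed. A change of sign between fits that both failed the threshold was counted as staying. An example is *Pdk3* on Collagen I over the control, which ranged from -0.048 to 0.040. RLE or upper-quartile scaling moved the median of all genes by at most 0.0612 on the log2 scale. Same-numbered samples did not deviate together in every pair (correlations of 0.0473, 0.169, and 0.225 for Collagen I and fibronectin), so the numbers were not taken to pair the samples. With the replicate block the member log2 fold changes moved by at most 0.00666 (*Pdk2* on fibronectin over the control was -0.61), and 1 call was lost, *Fh1* on Collagen I over Geltrex™ (adjusted p = 0.0608).

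Counts past the threshold moved by over 1.5 times as follows, and the cause was not tested. Asking for a fold change of at least 2 left 0 of the 9 and 0 of the 32 genes in every comparison. For Collagen I over the control, 1 of the 9 and 1 of the 32 became 2 and 2 with DESeq2 and 0 and 0 with only the samples compared or with the Geltrex™ samples summed. The 162 of all genes there became 485 with DESeq2, 581 with no filter, 39 with only the samples compared, and 45 with the sum. For fibronectin over the control, the 5 members became 3 with no filter and 2 with the sum, and the 15 list genes 7 with the sum. With the sum, Geltrex™ over the control gave 1 member, 3 list genes, and 2079 of all genes (from 4786), Collagen I over Geltrex™ gave 1, 2, and 2130 (from 5384), and fibronectin over Geltrex™ gave 3 list genes and 703 of all genes (from 2805). With no filter, Collagen I over Geltrex™ had 7 list genes (from 13), and with only the samples compared fibronectin over Geltrex™ had 8 (from 5).

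Leaving out each sample in turn gave 0 to 1 members, 0 to 1 list genes, and 44 to 233 of all genes for Collagen I over the control. It gave 2 to 5 members and 5 to 18 list genes for fibronectin over the control, 4 to 13 list genes for Collagen I over Geltrex™, and 1 to 2 members, 4 to 9 list genes, and 1717 to 3436 of all genes for fibronectin over Geltrex™. With the longest transcript as gene length, the kinase shares in the control, Collagen I, fibronectin, and Geltrex™ were 29.2%, 30.4%, 31.9%, and 43.4% for *Pdk1*, 17.5%, 17.4%, 24.9%, and 21.1% for *Pdk3*, and 19.97%, 12.8%, 22.4%, and 12.2% for *Pdk4*, and those of *Pdk2* were 20.8% on fibronectin, 23.4% on Geltrex™, and 33.4% in the control.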
